A study of Mus musculus with 10 samples.

Results

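The transcripts described here are those of 6 genes of the red cell lineage: the alpha-globin genes Hba-a1 and Hba-a2, the beta-globin genes Hbb-bs and Hbb-bt, the haem synthesis gene Alas2 and the anion exchanger gene Slc4a1. They were chosen by name, through the Ensembl identifiers of the GENCODE annotation of mm10, and are 6 of the 48526 genes counted. The 10 RNA-seq libraries came from mouse aortic endothelial cells isolated by fluorescence-activated cell sorting, 5 from non-stressed and 5 from stressed mice. All mice carried the strain label ApoE, and the labels give neither age nor sex. The stressed mice underwent acute mental stress for 3 h on each of 3 days in a row before the aortae were taken. The study asked how such stress changes the transcriptome of aortic endothelium. No label tells if a library came from a single mouse or from several, and p-values therefore describe only the spread between these libraries.

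Haemoglobin carries oxygen and is a tetramer of alpha and beta chains, each holding a haem group. The chains, the haem and the band 3 anion exchanger are made in erythroblasts and reticulocytes; mature red cells have lost the nucleus but can keep remnants of globin mRNA. In the vessel wall, alpha globin protein is known from the endothelium of small resistance arteries.

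Total counts ran from 18020220 to 38237346 per library, so that a gene with no read could still have stood at 0.0785 to 0.166 CPM (its counts per 1000000 counts of the library), a limit set at 3 counts that covers counting error only. The libraries went against their label for the sorted cell type: the macrophage and monocyte gene Lyz2 stood at 15692 to 26749 CPM, whereas the endothelial gene Cdh5 stood at 0 to 0.994 CPM and Nos3 had reads in 2 of 10 libraries. Pecam1, which leukocytes and platelets express too, stood at 12.2 to 46.8 CPM. More than 100 reads of the Y-linked gene Ddx3y were present in 6 libraries (replicates 2, 3 and 4 of each group) and absent from the other 4, so this difference between libraries was balanced over the groups. The erythroid transcription factor gene Gata1 had reads in 9 of 10 libraries (at most 1.75 CPM, and 1 read in non-stressed 4). Its Pearson's r over libraries with the mean level of the 6 members was 0.389, so these few reads are a weak check of the erythroid label.

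The alpha-globin copies lie on the plus strand of chromosome 11 (mm10), Hba-a1 (ENSMUSG00000069919) at chr11:32283511-32284465 and Hba-a2 (ENSMUSG00000069917) at chr11:32296489-32297298. The beta-globin copies lie on the minus strand of chromosome 7, Hbb-bs (ENSMUSG00000052305) at chr7:103826534-103828096 and Hbb-bt (ENSMUSG00000073940) at chr7:103812524-103813996. Alas2 (ENSMUSG00000025270) is at chrX:150547375-150570638 on the plus strand, and its span overlaps 2 genes of the other strand, Apex2 and Mir3620. Slc4a1 (ENSMUSG00000006574) is at chr11:102348824-102366203 on the minus strand. No source used here states if the counting used strand, so reads of Alas2 and of its antisense partners may not be told apart.

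The copies within each globin pair are nearly the same sequence, which limits what their separate counts mean. The annotated coding sequences of Hba-a1 and Hba-a2 are 429 bases long and differ at 1 base, C381T, and those of Hbb-bs and Hbb-bt are 444 bases long and differ at 1 base, C417T. Positions count from 1 at the A of the start codon, and both substitutions fall on the last base of a codon. The stretches around these bases are shown because a read of coding sequence can be assigned to 1 copy only if it covers the base in capitals:
Hba-a1: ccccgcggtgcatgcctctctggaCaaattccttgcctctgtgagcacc
Hba-a2: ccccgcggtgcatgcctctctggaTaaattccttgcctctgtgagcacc
Hbb-bs: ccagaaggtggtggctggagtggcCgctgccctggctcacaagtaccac
Hbb-bt: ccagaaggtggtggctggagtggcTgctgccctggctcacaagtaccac
Outside the coding sequence the annotated transcripts differ more. Of all windows of 100 bases in the transcript, 43.5% were absent from the other copy for Hba-a1, 25.5% for Hba-a2, 37.4% for Hbb-bs and 45.2% for Hbb-bt. Neither the read length nor the treatment of reads that map to both copies is stated in the sources used here. The split of reads within a pair is therefore uncertain, and the sums over each pair are given too.

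Sequence upstream of the start was taken from RefSeq (GRCm38.p6) for the 5 members with an entry, to show which short motifs the genes that vary together share. Capitals mark AGATAA or TGATAA (the GATA motif), CACCC and CCAAT on either strand, and TATAA on the gene's strand. Each sequence is given in the direction of the gene and holds the longest part of the 250 bases before the RefSeq start that no annotated exon of that gene covers. They are Hba-a2 at chr11:32296242-32296488, Hbb-bs at chr7:103827929-103828011, Hbb-bt at chr7:103813997-103814173 and Alas2 at chrX:150547167-150547374.
Hba-a2: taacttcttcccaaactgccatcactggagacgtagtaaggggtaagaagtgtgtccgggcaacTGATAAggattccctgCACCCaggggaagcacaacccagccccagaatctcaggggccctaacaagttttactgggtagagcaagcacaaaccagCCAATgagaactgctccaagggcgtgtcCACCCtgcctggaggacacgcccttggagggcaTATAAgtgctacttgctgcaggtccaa
Hbb-bs: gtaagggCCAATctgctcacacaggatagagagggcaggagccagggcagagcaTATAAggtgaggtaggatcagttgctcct
Hbb-bt: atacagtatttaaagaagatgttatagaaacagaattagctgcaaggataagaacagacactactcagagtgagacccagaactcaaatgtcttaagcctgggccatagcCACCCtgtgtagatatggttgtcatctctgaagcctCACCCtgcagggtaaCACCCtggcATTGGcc
Alas2: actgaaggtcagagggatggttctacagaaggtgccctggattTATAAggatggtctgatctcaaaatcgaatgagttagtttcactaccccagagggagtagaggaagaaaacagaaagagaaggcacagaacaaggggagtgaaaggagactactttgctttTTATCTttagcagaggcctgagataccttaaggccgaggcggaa
Over the full 250 bases, Hba-a1, Hba-a2 and Hbb-bs held all 4 motifs, Hbb-bt lacked AGATAA and TGATAA, and Alas2 lacked CCAAT. Of 32851 promoters of that length, 16.6% held the GATA motif, 52.0% CACCC, 33.8% CCAAT, 16.0% TATAA and 0.499% all 4. No match overlapped another in these windows. The Hba-a2 window was identical to that of Hba-a1 over all 247 bases compared, so both alpha copies count as 1 sequence here. A match is a run of letters and no evidence of binding.

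All 6 members were detected in every library, and their group means were higher in the stressed libraries, but the groups overlapped for each. The 4 globin genes took 0.2001% ± 0.0550 (SD, n = 5) of all counts without stress and 0.322% ± 0.155 (SD, n = 5) with it. In none of the 6 did the difference pass the test over 13334 genes (edgeR's quasi-likelihood test with Benjamini-Hochberg adjustment at 0.05), which called 1 gene of all those tested, 0.00750%. Without adjustment, 5 of the 6 had p under 0.05 in the higher direction, where 2.59% of all tested genes did, and all 6 had a log2 fold change above 0, as had 50.9% of all tested genes. The genes vary together across libraries, as shown further on, so these are not 5 separate results. In bulk RNA, fewer or more cells of a type and less or more RNA per cell cannot be told apart.

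Hba-a1 encodes an alpha chain. It stood at 441, 533, 410.1, 359 and 261 CPM in non-stressed replicates 1 to 5 and at 781, 510.4, 1133, 258 and 696 CPM in stressed replicates 1 to 5. Stressed replicates 1, 3 and 5 were above every non-stressed library, stressed 2 lay within their range, and stressed 4 was the lowest of all 10. The means were 401 ± 100.5 CPM (SD, n = 5) and 676 ± 325 CPM (SD, n = 5). The log2 fold change was 0.76 (SE 0.29, 95% interval 0.15 to 1.37, edgeR adjusted p = 0.874).

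Hba-a2, the other alpha chain gene, showed the same order of libraries at a lower level. Its non-stressed libraries held 327, 396, 300.0, 269 and 192 CPM, and its stressed libraries 548, 363, 828.8, 179.7 and 510.02 CPM. Stressed 3 was again the highest and stressed 4 the lowest of the 10. The log2 fold change was 0.72 (SE 0.29, 95% interval 0.09 to 1.34, edgeR adjusted p = 0.874). Summed over both alpha copies before the fit it was 0.74 (SE 0.29).

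Hbb-bs encodes a beta chain and was the most abundant member. It stood at 1366, 1472, 1064, 899.8 and 714 CPM in the non-stressed and at 2028, 1384, 2836, 605 and 1763 CPM in the stressed libraries. Stressed 3 held 4.69 times the level of stressed 4, a spread within 1 group that exceeds the 1.56-fold ratio of the group means. The log2 fold change was 0.65 (SE 0.30, 95% interval 0.02 to 1.28, edgeR adjusted p = 0.886).

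Hbb-bt, the second beta chain gene, stood at 234, 287, 204, 152 and 127 CPM in the non-stressed and at 436, 275, 523, 92.4 and 329 CPM in the stressed libraries. Again stressed 1, 3 and 5 lay above the non-stressed libraries and stressed 4 below them. The log2 fold change was 0.73 (SE 0.33, 95% interval 0.02 to 1.44, edgeR adjusted p = 0.886), and that of both beta copies summed was 0.66 (SE 0.30).

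Alas2 is the erythroid form of 5-aminolevulinate synthase, the first enzyme of haem synthesis. It stood at 101.8, 89.0, 71.4, 56.7 and 36.7 CPM in the non-stressed and at 123, 85.03, 193, 35.5 and 115 CPM in the stressed libraries. The order was close to that of the globins, with stressed 3 highest and stressed 4 lowest. The log2 fold change was 0.64 (SE 0.34), and its 95% interval, −0.09 to 1.37, included 0 (edgeR adjusted p = 0.907).

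Slc4a1 encodes band 3, the anion exchanger that carries chloride and bicarbonate across the red cell membrane and anchors the membrane skeleton. It was the rarest member and the one with the largest difference. Its non-stressed libraries held 51, 55, 77, 51 and 33 reads, or 2.09, 1.44, 2.18, 2.004 and 1.15 CPM. Its stressed libraries held 243, 81, 179, 58 and 186 reads, or 11.2, 3.59, 9.93, 1.92 and 7.09 CPM. Of the stressed libraries, 4 of 5 lay above every non-stressed library, and stressed 4 lay among them. The means were 1.77 ± 0.455 CPM (SD, n = 5) and 6.75 ± 3.98 CPM (SD, n = 5). The log2 fold change was 1.93 (SE 0.45, 95% interval 0.96 to 2.90), a ratio of 3.81, with an edgeR p of 0.000722 that ranked 17th of the 13334 genes and an adjusted p of 0.566. DESeq2 gave the same log2 fold change of 1.93 with an adjusted p of 0.0244, past the threshold that edgeR's did not reach. The limma-voom fit, which here weights the libraries by quality, gave 1.52 with an adjusted p of 0.454. The call therefore depends on the tool.

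**Figure D1:**
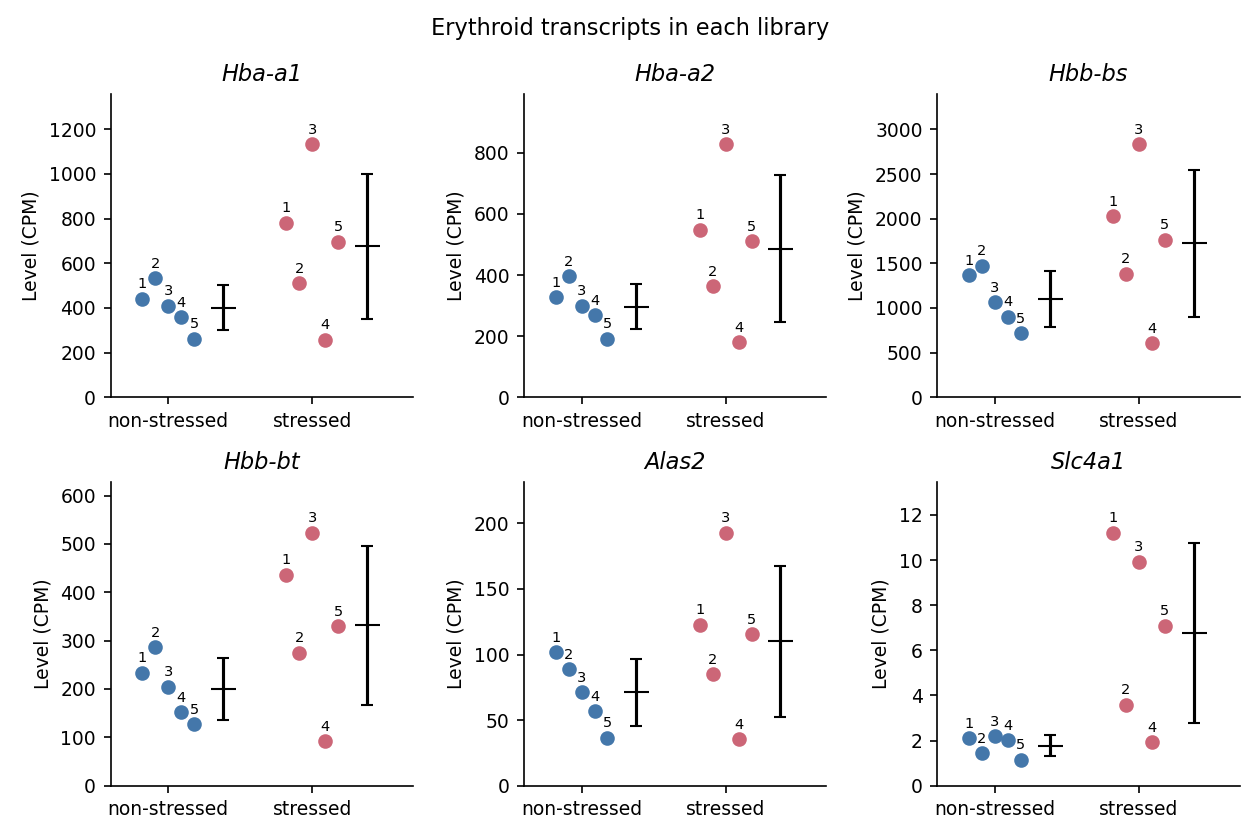
Level of each of the 6 members in CPM (vertical axis, from 0) in the 5 non-stressed (blue) and 5 stressed (red) libraries, each point a library with its replicate number, and beside each group its mean with a bar of 1 SD. In all panels stressed 1, 3 and 5 lie above the non-stressed libraries and stressed 4 lies below them, except for Slc4a1, where stressed 4 lies among them and stressed 2, at 3.59 CPM, lies above them.

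Single libraries moved the globin and Alas2 estimates. Leaving out stressed 3 gave the smallest log2 fold changes of these 5 genes (0.34 for Alas2 to 0.50 for Hbb-bt), and leaving out stressed 4 the largest (0.86 to 0.96). For Slc4a1 the range was 1.67 without stressed 1 to 2.16 without stressed 4. The direction was the same within the libraries with Ddx3y reads (log2 fold changes of 0.47 to 0.54 for the globins and Alas2, and 1.45 for Slc4a1) and within those without (0.80 to 1.10 and 2.51). A test of the difference between these 2 kinds of library (edgeR interaction term) gave an adjusted p of 1 for each member. The spread within groups of log2(CPM + 1), an SD of 0.627 to 0.765 for the 6 members, was higher than in 91.7% to 96.9% of tested genes, whose median was 0.270. The added 1 narrows this SD for rare genes. By edgeR's own measure of spread, the biological coefficient of variation, the members exceeded only 62.9% to 74.6% of tested genes.

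**Figure D2:**
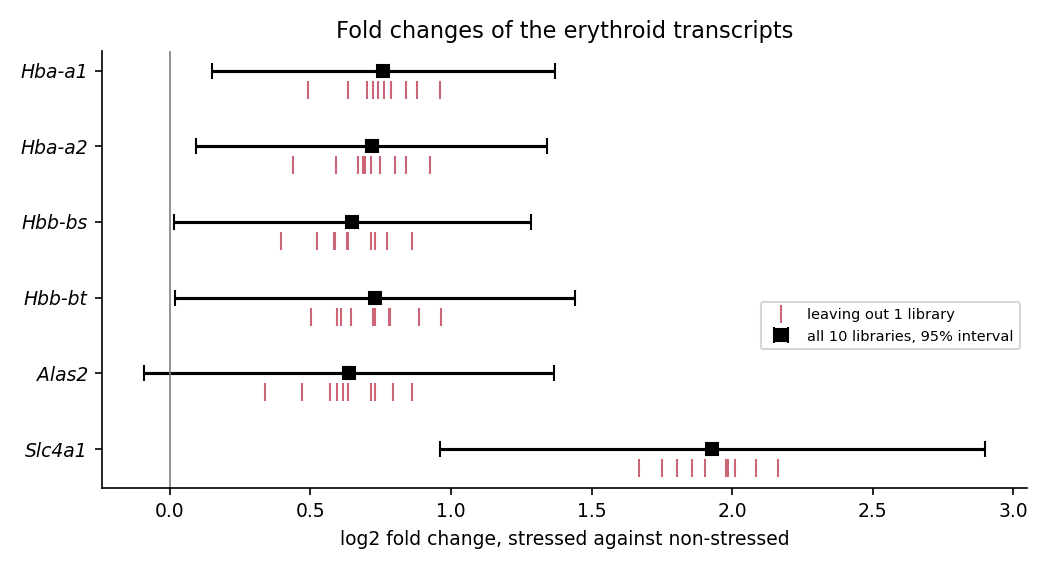
Log2 fold change of each member, stressed against non-stressed, over all 10 libraries (black square) with its 95% interval (bar), and the values when each library is left out in turn (red ticks below). The interval of Alas2 includes 0, and the leave-one-out values of all 6 stay above 0, the lowest being 0.34 for Alas2.

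Per kilobase of annotated exon, the mean level over all 10 libraries was highest for Hbb-bs at 1840 CPM per kb, then Hba-a1 at 663, Hba-a2 at 587, Hbb-bt at 378, Alas2 at 37.8 and Slc4a1 at 0.872. The ranges over libraries of neighbouring globins in this order overlapped, but the order of the globins was the same within every library. Uncertain sharing of reads affects both copies of each pair. In the library where it was highest, Hbb-bs was the 15th most abundant gene by counts, and in the library where it was lowest the 221st. Slc4a1 ranked between 8017th and 11558th.

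Proportions among the members do not depend on the depth of a library. Of 5 proportions compared, 2 differed between groups (two-sided exact permutation test over all 252 assignments of libraries, smallest possible p 0.00794, adjusted over the 5). Slc4a1 relative to globin was higher in the stressed libraries. Per 1000 adult globin reads there were 0.884, 0.535, 1.10, 1.19 and 0.887 Slc4a1 reads in the non-stressed and 2.96, 1.42, 1.87, 1.69 and 2.15 in the stressed libraries. All 5 stressed libraries were above all 5 non-stressed ones, stressed 4 included, although its globin level was the lowest of all. The means were 0.920 ± 0.254 and 2.02 ± 0.588 (SD, n = 5 each), a ratio of 2.19 (exact permutation p = 0.00794, adjusted p = 0.0397). The 95% Wilson intervals of stressed 2 (1.14 to 1.76) and stressed 4 (1.31 to 2.19) overlapped that of non-stressed 4 (0.908 to 1.57), and those of stressed 1, 3 and 5 lay above all non-stressed intervals. With any 1 of the 5 non-stressed libraries left out, the call was lost, at a highest adjusted p of 0.0794 (exact permutation test). It was kept with any 1 stressed library left out. The groups still did not overlap without a non-stressed library. With groups of unequal size, assignments of the opposite direction can give a larger difference than that observed, which raises p. The lost call therefore does not show that the result rests on 1 of those libraries. The difference of 1.10 per 1000 stayed between 0.862 and 1.25 over all 10 omissions.

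The share of Hba-a1 in the reads of both alpha copies was 57.42%, 57.40%, 57.754%, 57.14% and 57.63% in the non-stressed and 58.75%, 58.41%, 57.758%, 58.90% and 57.72% in the stressed libraries. The means, 57.5% ± 0.236 and 58.3% ± 0.549 (SD, n = 5 each), differed by 0.839 percentage points (exact permutation p = 0.0159, adjusted p = 0.0397), and 4 of 5 stressed values exceeded every non-stressed value, stressed 3 by far less than its counting error. This call, too, was lost without any 1 non-stressed library (exact permutation test, highest adjusted p 0.119) and kept without any 1 stressed library. How reads were assigned between the copies is not stated and bears on this share directly. The Wilson 95% intervals of most libraries overlapped, from 57.2 to 58.3 in stressed 3 and from 57.1 to 58.4 in non-stressed 3, for example.

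The other 3 proportions did not pass the test. Hbb-bs took 84.7% ± 0.862 of the reads of both beta copies in the non-stressed and 84.2% ± 1.64 in the stressed libraries (SD, n = 5 each, exact permutation p = 0.603, adjusted p = 0.683). Alpha chains took 35.1% ± 1.83 and 36.3% ± 1.60 of adult globin reads (SD, n = 5 each, exact permutation p = 0.294, adjusted p = 0.489). Alas2 had 34.9 ± 5.33 and 33.7 ± 2.002 reads per 1000 globin reads (SD, n = 5 each, exact permutation p = 0.683, adjusted p = 0.683), and the highest value, 43.0, was that of non-stressed 1. Alas2 thus stayed close to 1 level relative to globin while both varied several-fold, with all libraries but non-stressed 1 between 28.4 and 36.3.

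**Figure D3:**
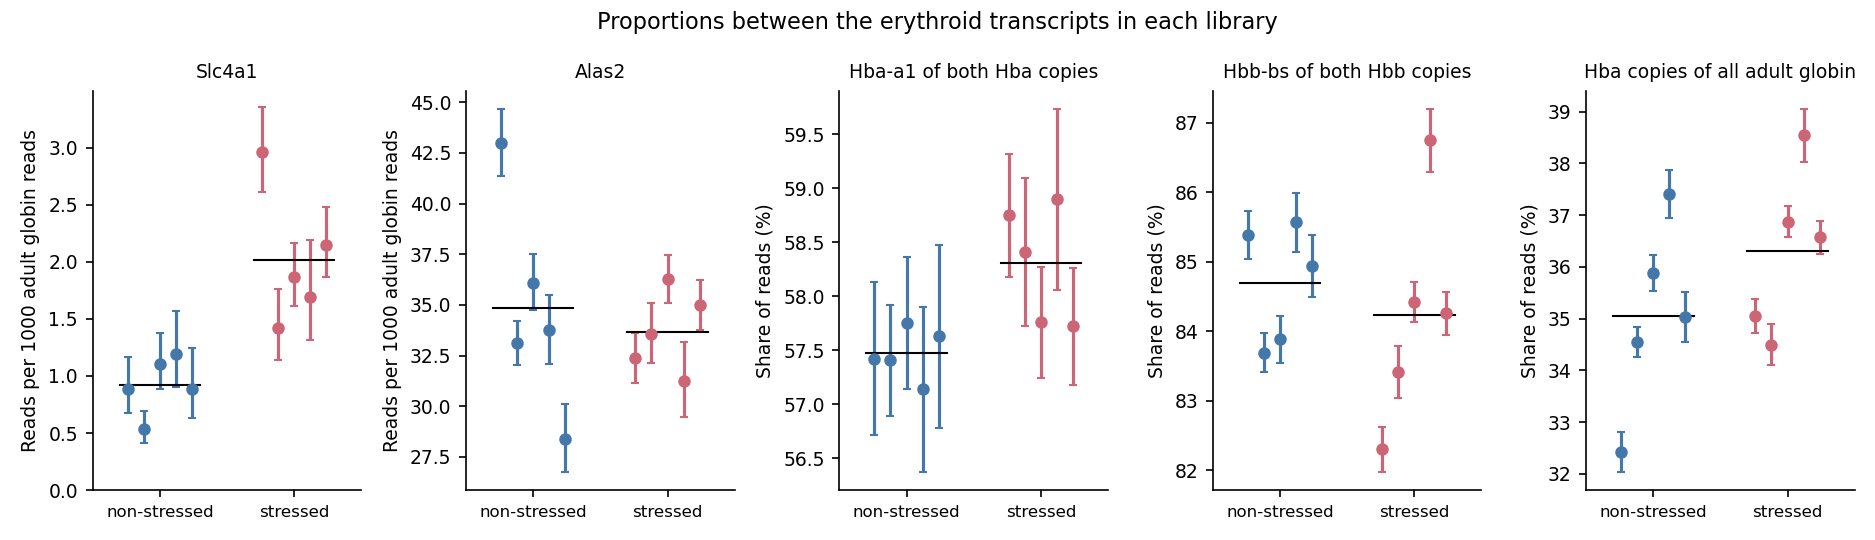
Proportions between the members in each library, with 95% Wilson intervals (bars, counting error only) and group means (lines): Slc4a1 and Alas2 reads per 1000 adult globin reads, and 3 shares of reads in percent; only the Slc4a1 axis starts at 0. The Slc4a1 values of the groups do not overlap, with means of 0.920 in non-stressed and 2.02 in stressed libraries.

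The 6 genes varied together over the 10 libraries. For the 10 pairs among the globins and Alas2, Pearson's r of log2(CPM + 1) over 10 libraries was 0.967 to 0.999 and Spearman's rho 0.964 to 1 (permutation test, 100000 resamples, adjusted p 3e-05 to 4.5e-05 for r over 15 pairs). The near-identical copies, which may share reads, had the highest r, 0.9987 for the alpha and 0.991 for the beta pair. In the remaining pairs of these genes r was 0.967 to 0.989. For the 5 pairs with Slc4a1, r was 0.778 to 0.863 and rho 0.770 to 0.782 (permutation test, adjusted p 0.00142 to 0.0084 for r and 0.0131 for rho). Without the 2 libraries farthest from the median, r was 0.936 to 0.999 and 0.779 to 0.852. With the group means subtracted, r was 0.963 to 0.9995 and 0.826 to 0.861. These values pool both groups, and the stressed libraries, with the wider spread, weigh more in them; 5 libraries are too few for an r in each group. Among the non-stressed libraries Slc4a1 did not follow the order of the globins: it was higher in non-stressed 3 (2.18 CPM) than in non-stressed 2 (1.44 CPM), where all 4 globin genes were at their highest in that group.

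Of the tested genes outside the 6, those most like their mean pattern over the 10 libraries included Fam220a (r = 0.973), Bpgm (r = 0.972), Tex14 (r = 0.925), Tent5c (r = 0.919), Casc4 (r = 0.911), Fam213a (r = 0.898), Ube2o (r = 0.897), Ppp2cb (r = 0.894) and Sdhd (r = 0.890). The median r of tested genes was −0.03 and the 95th percentile 0.527. These are descriptions over libraries that share the same range of erythroid RNA. Bpgm encodes bisphosphoglycerate mutase, which makes the 2,3-bisphosphoglycerate that lowers the oxygen affinity of haemoglobin, and ran from 24.6 CPM in stressed 4 to 108.5 CPM in stressed 3. Casc4 reached at most 1.44 CPM, so its likeness rests on few reads.

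**Figure D4:**
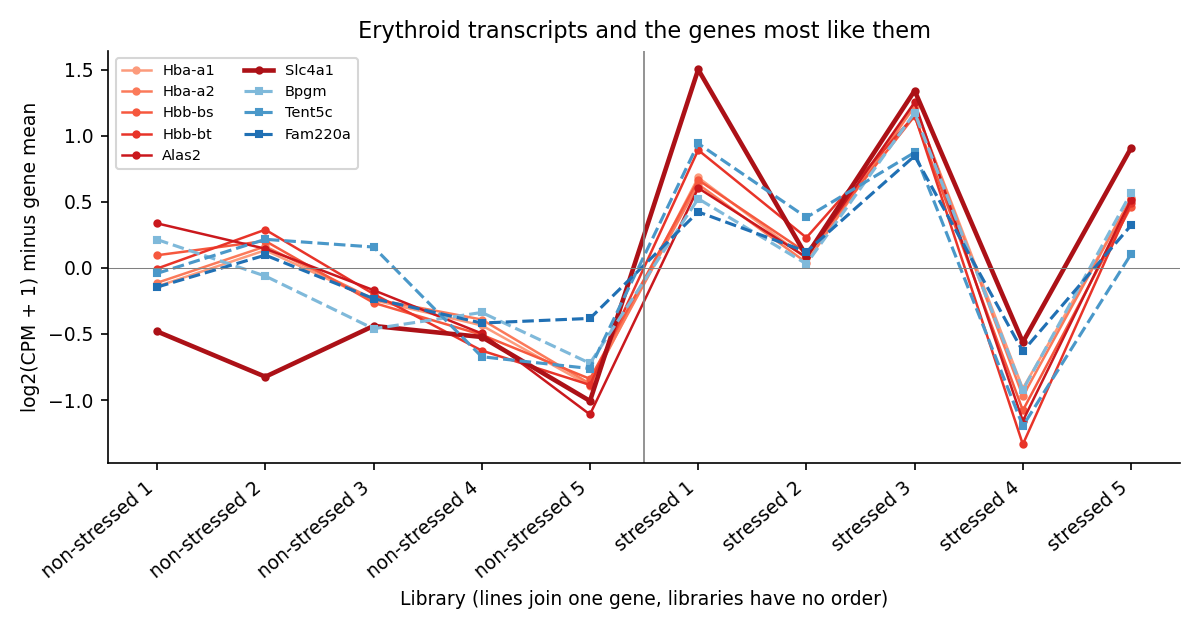
Log2(CPM + 1) minus the gene's mean over the 10 libraries (vertical axis) for the 6 members (red, circles) and 3 of the genes most like them (blue, squares); lines join the values of 1 gene and libraries have no order. All 9 genes are high in stressed 3 and low in stressed 4, and Slc4a1 lies below its own mean in all 5 non-stressed libraries.

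The embryonic and minor globins were near or below detection. Hbb-bh2 had 0 reads and Hbb-bh1 1 read in all 10 libraries together, Hba-x had 2, Hbb-y 6, Hbq1a 15 and Hbq1b 27. None of them was tested. The globin signal was thus that of the adult chains.

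In the list of 13 haem synthesis and mitochondrial iron import genes, 12 were tested, 8 had a higher and 4 a lower estimate in the stressed libraries, and 0 were called by edgeR, with 1 at an unadjusted p under 0.05 (median log2 fold change 0.15, against 0.00447 over all tested genes). In this and the next 5 lists, DESeq2 called Slc4a1 and Hp, and limma-voom called 0 genes. Fech encodes ferrochelatase, which inserts iron into the porphyrin ring in the last step of haem synthesis in any cell. It stood at 32.2 to 42.6 CPM in the non-stressed and 44.6 to 59.6 CPM in the stressed libraries, which did not overlap, as for 0.607% of tested genes in this direction (log2 fold change 0.46, SE 0.11, edgeR adjusted p = 0.641). Its lowest library was non-stressed 1, where the globins were not low. Ppox, the enzyme before it, had 0.23 (SE 0.13), and Alas1, the housekeeping form of the enzyme that Alas2 encodes, had 0.15 (SE 0.10). Tspo2 was not tested.

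Of 18 red cell membrane and skeleton genes, 10 were tested, 8 had a higher and 2 a lower estimate, and 0 were called by edgeR, with 2 at an unadjusted p under 0.05 (median 0.25, and 0.20 over the 9 tested without Slc4a1). Epb41, protein 4.1 of the skeleton, had a log2 fold change of 0.30 (SE 0.12), and Gypc, glycophorin C, of 0.14 (SE 0.15). Add2, Dmtn, Epb42, Ermap, Icam4, Kel, Rhag and Tmod1 were not tested.

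Of 12 erythroid transcription factors and receptors, 9 were tested, 6 with a higher and 3 with a lower estimate (median 0.07). Of these, 0 were called by edgeR, and 1, with a lower estimate, had an unadjusted p under 0.05. Bcl11a, a repressor of embryonic and fetal globin genes that B cells also express, had a log2 fold change of −0.28 (SE 0.11, edgeR adjusted p = 0.874), the transferrin receptor gene Tfrc −0.37 (SE 0.30), Nfe2 0.09 (SE 0.08) and Tal1 0.34 (SE 0.37). Klf1, the master regulator of adult beta globin, had reads in 4 libraries and at most 0.354 CPM, and Epor, the erythropoietin receptor gene, had reads in 5 and at most 0.388 CPM. Klf1, Epor and Tfr2 were not tested.

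Of 20 late erythroid and reticulocyte genes, 15 were tested, 12 with a higher and 3 with a lower estimate, and 0 were called by edgeR, with 4 at an unadjusted p under 0.05 (median 0.22). Trim10, a gene of terminal erythroid differentiation, had 0, 0.575, 0.227, 0.432 and 0 CPM in the non-stressed and 4.85, 1.29, 2.05, 0 and 3.01 CPM in the stressed libraries (log2 fold change 3.14, SE 1.27, edgeR adjusted p = 0.874). As for Slc4a1, 4 of 5 stressed values exceeded every non-stressed value, with stressed 4 apart from the other stressed libraries. Prdx2, a peroxiredoxin abundant in red cells and present in other cells, had a log2 fold change of 0.23 (SE 0.07, edgeR adjusted p = 0.788). Like those of Fech, its stressed libraries all lay above the non-stressed ones, as for 0.607% of tested genes. Bpgm had a log2 fold change of 0.68 (SE 0.29) and Bnip3l, which drives mitochondrial clearance in reticulocytes, of 0.19 (SE 0.08). Car1, Hemgn, Slc38a5 and Trim58 were not tested, and Ahsp had no matched row.

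All 9 genes listed as neighbours of the alpha-globin genes were tested. Their positions in mm10 were not checked, so some may lie elsewhere in the mouse genome. Of the listed genes, 5 had a higher and 4 a lower estimate, and the median was 0.02. Of the 9, 0 were called by edgeR and 0 had an unadjusted p under 0.05. The lowest unadjusted p were those of Luc7l (log2 fold change 0.22, SE 0.12), Snrnp25 (0.32, SE 0.24), Nprl3 (0.14, SE 0.14) and Mpg (0.13, SE 0.25). Nprl3, whose introns hold the distal enhancers of alpha globin, had an r of 0.154 with the mean pattern of the members.

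Of 10 genes of haemoglobin and haem clearance, 9 were tested, 4 with a higher and 5 with a lower estimate. Of these, 0 were called by edgeR, and 2 had an unadjusted p under 0.05, 1 higher and 1 lower. Hp encodes haptoglobin, the plasma protein that binds free haemoglobin and that myeloid cells also express, and had a log2 fold change of 0.48 (SE 0.12, edgeR adjusted p = 0.641), and DESeq2 called it. Cd163, the receptor for the complex of both, had −0.32 (SE 0.26), the haem exporter gene Flvcr1 −0.23 (SE 0.10) and the biliverdin reductase gene Blvra 0.18 (SE 0.11). Hpx was not tested.

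**Figure D5:**
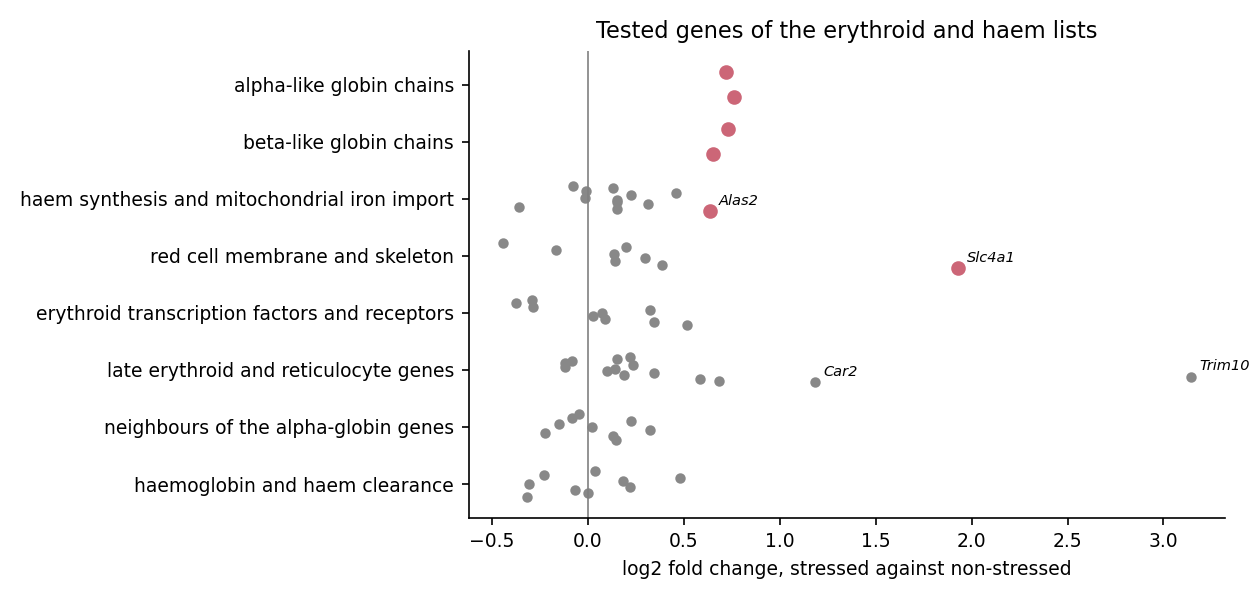
Log2 fold change, stressed against non-stressed, of tested genes of the 8 lists, without those not reported here (each point a gene, red for the 6 members; vertical offsets within a row only separate points). Most points lie between −0.5 and 1, and Slc4a1 at 1.93 and Trim10 at 3.14 stand apart.

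The summed levels of the marker lists of other cells overlapped between the groups, and edgeR called none of their genes. All 10 platelet markers had a higher estimate in the stressed libraries, with a median log2 fold change of 0.41 and 0 at an unadjusted p under 0.05, and their summed level was 75.2 to 266 CPM in the non-stressed and 122 to 278 CPM in the stressed libraries; Pf4, the platelet factor 4 gene, stood at 7.47 to 34.9 CPM. All 8 B cell markers had a lower estimate (sums of 487 to 941 against 347 to 648 CPM), as had 8 of 10 T and NK cell markers (19.6 to 120.4 against 11.5 to 80.9 CPM), none at an unadjusted p under 0.05. Over all tested genes, 50.9% had a higher estimate. How far the markers of a cell type vary together was not tested, so such counts need not be separate results. Macrophage and monocyte markers summed to 24512 to 36423 against 29244 to 36109 CPM, with 5 of 10 higher, and neutrophil markers to 811 to 2590 against 1082 to 2379 CPM, with 8 of 11 higher, of which DESeq2 called Mmp8. Endothelial markers summed to 63.7 to 112.9 against 62.6 to 108.5 CPM, with Cldn5, Emcn and Tek at 0 in all libraries, and smooth muscle and fibroblast markers to 8.42 to 17.4 against 11.8 to 18.6 CPM. Of the 12 erythroid markers, 8 were tested and all 8 had a higher estimate, 6 of them the members themselves. The part of these other cells in the levels of the 6 genes was not tested.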

How the data were processed

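RNA-seq was done on 10 libraries, 5 per group, with groups and replicate numbers taken from the sample titles. The labels' protocols name a PicoPure kit for the RNA and a TruSeq Stranded kit for the libraries. The authors deposited raw read counts per Ensembl gene. Trimmomatic, STAR, featureCounts and mm10 were used per the submitters' processing notes; their versions, the annotation, and the strand and multi-mapping settings are stated by none of the sources used here.

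Of 48526 identifiers, 48058 matched a symbol; the other 468 held 0.0508% to 0.0636% of a library's counts and were kept. Libraries of a group were no duplicates (chi-square per degree of freedom 22.3 to 69.8). The test was that of edgeR 4.0.16 (R 4.3.3): filterByExpr (minimum count 10), TMM factors, intercept and group, quasi-likelihood F test, Benjamini-Hochberg over all 13334 tested genes at 0.05. The filter kept 99.9% of counts and all 6 members. SE is the log2 fold change divided by the square root of F. The script was tested on simulated data. CPM uses plain library totals. Proportions had exact permutation tests and Wilson 95% intervals (scipy 1.17.1), and PCR reads without molecular identifiers are not independent molecules. Alternatives were DESeq2 1.42.0, limma-voom with quality weights for the libraries (limma 3.58.1), edgeR's robust fit, and other factors, filters and pseudocounts. Further ones were the replicate number as a block, Ddx3y reads as a covariate, copies summed, libraries split by Ddx3y reads and each library left out. DESeq2's missing adjusted p-values were kept as missing.

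Members and lists were chosen with earlier results of these data known. Named are the 6 members, up to 4 tested genes per list with the smallest unadjusted p, untested list members, the 10 genes most like the members' mean and defining markers; some genes that this rule takes are not reported here. Levels of Klf1, Epor, the untested globins and marker genes, Mmp8, and the r of Nprl3 and Gata1, were named after their values were seen. Upstream sequence came from RefSeq (5 of 6 members matched), coding sequence from GENCODE vM21.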

Additional observations from a re-analysis of the deposited data

How the results depend on the processing

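Slc4a1 was the only member called by any fit, with DESeq2, where 1 of the 6 was called and 0 by edgeR. The number of genes called, 1 in the main test, was 10 without a low-count filter, 19 with DESeq2, 2 with limma-voom, 0 in the libraries without Ddx3y reads and 1 to 2 when 1 library was left out (2 without non-stressed 5). Replicate numbers pair the libraries by no label, and same-numbered libraries correlated at −0.0722 to 0.214 after group means were removed, with 3 of 5 matching their own number best; with the replicate block, 4 genes were called and Slc4a1 had a log2 fold change of 1.73 (edgeR adjusted p = 0.315). Every member kept a log2 fold change above 0 in each alternative run. The difference in Slc4a1 reads per 1000 globin reads was 0.862 to 1.25 with 1 library left out (exact permutation test, adjusted p 0.0198 to 0.0794). It missed the threshold without any 1 non-stressed library, although the groups then still did not overlap. It was 0.716 in the libraries with Ddx3y reads and 1.67 in those without, where the smallest possible p are 0.100 and 0.333. The difference in the Hba-a1 share was 0.691 to 0.986 points with 1 library left out (exact permutation test, adjusted p 0.0198 to 0.119). It, too, missed the threshold without any 1 non-stressed library, and was 0.924 points with and 0.712 without Ddx3y reads. That in the Hbb-bs share turned from −0.467 to 0.0158 without stressed 1 (lowest −1.10) and to 0.480 in the libraries with Ddx3y reads, and that in Alas2 per 1000 globin reads from −1.18 to 0.847 without non-stressed 1 (lowest −2.80). With few reads, Slc4a1 (33 to 243 per library) and the genes near 1 CPM are the least precise.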
